A study of Mus musculus with 6 samples.

Results

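Fibroblast growth factor (FGF) signalling was described across 36 genes in RNA of mouse embryonic stem cell (mESC)-derived motor neurons (MNs). The genes were fixed by symbol and role, and they are 36 of 34433 gene symbols in the expression table. They are 13 secreted ligands, 1 endocrine ligand, 4 intracellular FGF homologous factors, 1 carrier protein, 5 receptors, 1 receptor adaptor, 8 feedback inhibitors and 3 Ets transcription factors. Where a symbol had several entries, the one with the highest expression was taken.

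The Hb9 control line (labelled wildtype, and SMN2+/+;mSmn+/+ in the study's methods) was compared with the A2 SMA line (SMN2+/+;mSmn-/-), both FVB/N and both with an eGFP reporter under the Hb9 promoter. The human SMN2 transgene was therefore present in both. Both lines were kept on mouse embryonic fibroblast feeders and were made into embryoid bodies with noggin, FGF2 and FGF8b, followed by 1 µM retinoic acid and 1 µM Smoothened agonist for 5 days, and eGFP-positive cells were sorted. There were 3 samples per genotype, but the table holds 1 pooled value of FPKM (fragments scaled to transcript length and to the mapped reads of the library) per gene and genotype. No difference below has a replicate check, an error or a p-value, the reads behind a value are unknown, and each genotype is 1 line, so that genotype and line cannot be told apart.

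FGF ligands bind tyrosine kinase receptors together with heparan sulfate, and the adaptor Frs2 passes the signal to the RAS-MAPK cascade and its kinase ERK. ERK activity induces the Ets factors Etv1, Etv4 and Etv5, and it also induces its own inhibitors, the Sprouty, Spred, Dusp and Sef proteins, so the transcripts of these genes are widely used as a readout of the pathway. In pluripotent cells Fgf4 is the main ligand that the cells make themselves. In the caudal embryo FGF holds progenitors undifferentiated and is opposed by retinoic acid, and in the neural tube Fgfr3 marks ventricular progenitors.

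Smn1, the gene deleted in the A2 line (NCBI m37, chr13:100894807-100907645), was at 137 FPKM in Hb9 control and 5.26 FPKM in A2 SMA MNs. Mnx1, which encodes Hb9, was at 41.2 and 44.2 FPKM. The other MN markers compared were lower in the cells labelled A2 SMA MNs: Lhx3 was at 27.6 and 0.348 FPKM, Chat at 15.5 and 0.344 FPKM and Isl1 at 108 and 5.95 FPKM. Of 7 MN markers at 1 FPKM or more in at least 1 genotype, 6 were at least 2-fold lower, against 22.4% of 14926 genes compared in the same way. Lhx3, Lhx4, Chat and Olig2 reached 1 FPKM only in Hb9 control MNs, so the limit itself favours a difference in them. The list (8 genes in the table) summed to 248 and 53.2 FPKM, of which Mnx1 was 41.2 and 44.2 FPKM. All 10 pluripotency markers were higher, 9 of them by at least 2-fold, against 6.83% of all genes. They summed to 478 and 2127 FPKM, with Pou5f1 at 98.3 and 775 FPKM. All 8 pan-neuronal markers in the table were at least 2-fold lower, against 22.4% of all genes. Rbfox3 and Syt1 among them reached 1 FPKM only in Hb9 control MNs. A2 SMA MNs is therefore used below as the name of the samples, whose defining MN markers Lhx3 and Chat were under 1 FPKM.

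Of the 36 genes, 31 were above 0 FPKM in both genotypes and reached 1 FPKM in at least 1 of them, and their log2 ratio of FPKM in A2 SMA over Hb9 control MNs is used below. Of these 31, 7 were at least 2-fold higher in A2 SMA MNs (Fgf1, Fgf4, Fgf5, Fgf17, Spry4, Etv4 and Etv5), against 6.83% of 14926 genes compared in the same way. A further 10 were at least 2-fold lower (Fgf2, Fgf18, Fgf11, Fgf12, Fgf13, Fgf14, Fgfbp3, Fgfr3, Fgfrl1 and Dusp4), against 22.4% of all genes. As shares of the 31 genes these are 22.6% and 32.3%. Of these 17 genes, 5 reached 1 FPKM in 1 genotype only (Fgf5 and Fgf17 in A2 SMA MNs, Fgf12, Fgf14 and Fgfbp3 in Hb9 control MNs), so the limit itself favours a difference in them. The median log2 ratio of all genes was -0.29, with quartiles of -0.89 and 0.19, and the median of the 31 genes was -0.22. After scaling both genotypes to the upper quartile, 32 of the genes were compared, and 10 were higher and 8 lower in place of 7 and 10, against 12.9% and 14.2% of all genes. The added higher genes are the shared entry of Fgfr2 (1.13), Spry2 (1.19) and Fgf7, and the calls of Fgf2 (-0.96) and Dusp4 (-0.94) were lost. Fgf7, at 0.0377 and 0.894 FPKM before scaling, was compared only because scaling raised its A2 SMA value past 1 FPKM, so nothing is read from its call.

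**Figure D1:**
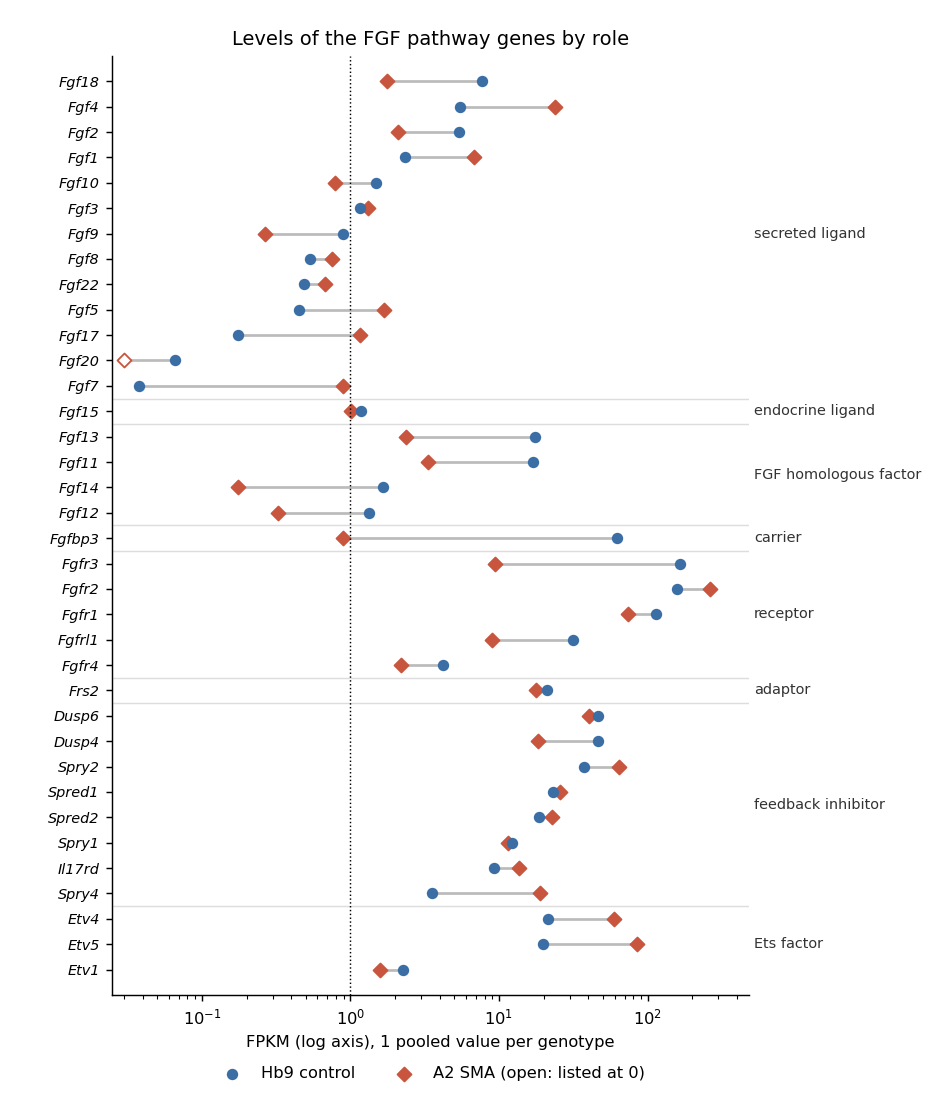
FPKM of the 36 genes on a log axis, grouped by role, with 1 pooled value for Hb9 control MNs (circles) and A2 SMA MNs (diamonds, open where the gene is listed at 0) and a dotted line at 1 FPKM. Fgfr3, Fgfbp3 and the FGF homologous factors lie to the left in A2 SMA MNs, and Fgf4, Spry4, Etv4 and Etv5 lie to the right.

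**Figure D2:**
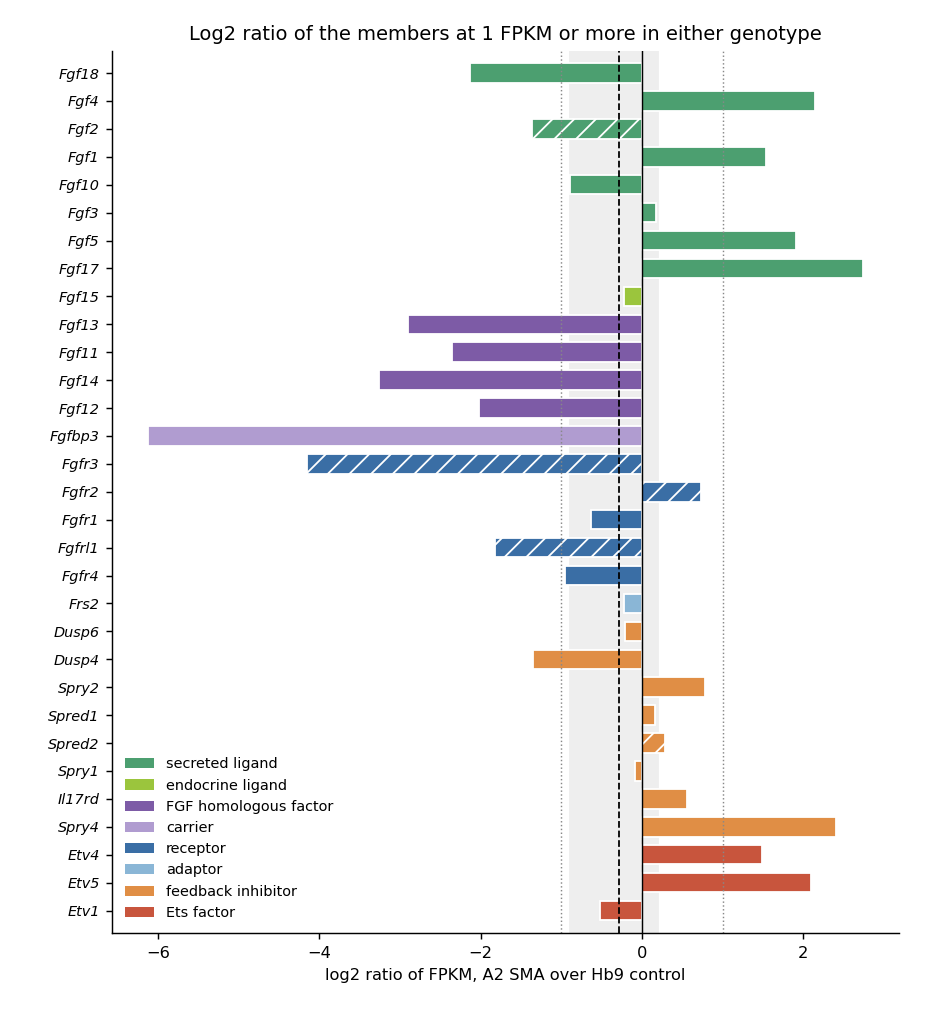
Log2 ratio of FPKM, A2 SMA over Hb9 control MNs, for the 31 genes that reached 1 FPKM, coloured by role. The dashed line and grey band are the median (-0.29) and quartiles (-0.89 and 0.19) of all genes, the dotted lines mark 2-fold, and hatched bars are entries shared with another gene or with a failed test status.

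Promoters of 4 genes are shown to go with the values below: Etv5 as the most abundant Ets factor in A2 SMA MNs, Spry2 as the most abundant feedback inhibitor there (1.72-fold higher, under the 2-fold limit), Fgf4 as the most abundant ligand there, and Fgfbp3 as the gene with the largest difference. Each is the RefSeq promoter of mouse build GRCm38.p6, from 250 bases before to 50 bases after the annotated start, 5′ to 3′ on the gene's strand. Capitals mark the Ets core motifs CCGGAA and GGAAGT, or their reverse complements.
Etv5, chr16:22438319-22438618, minus strand: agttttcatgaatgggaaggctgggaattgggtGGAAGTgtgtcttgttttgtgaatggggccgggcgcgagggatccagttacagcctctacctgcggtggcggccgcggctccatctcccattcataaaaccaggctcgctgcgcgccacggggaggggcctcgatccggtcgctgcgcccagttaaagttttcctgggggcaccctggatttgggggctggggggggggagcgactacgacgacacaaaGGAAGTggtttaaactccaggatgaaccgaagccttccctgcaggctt
Spry2, chr14:105896770-105897069, minus strand: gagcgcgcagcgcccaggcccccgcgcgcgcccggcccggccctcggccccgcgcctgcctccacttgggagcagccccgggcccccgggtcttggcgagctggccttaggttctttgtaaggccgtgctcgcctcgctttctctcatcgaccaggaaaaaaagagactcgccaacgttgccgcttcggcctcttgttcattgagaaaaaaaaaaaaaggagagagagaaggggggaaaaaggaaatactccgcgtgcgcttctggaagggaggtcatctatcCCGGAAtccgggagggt
Fgf4, chr7:144861136-144861435, plus strand: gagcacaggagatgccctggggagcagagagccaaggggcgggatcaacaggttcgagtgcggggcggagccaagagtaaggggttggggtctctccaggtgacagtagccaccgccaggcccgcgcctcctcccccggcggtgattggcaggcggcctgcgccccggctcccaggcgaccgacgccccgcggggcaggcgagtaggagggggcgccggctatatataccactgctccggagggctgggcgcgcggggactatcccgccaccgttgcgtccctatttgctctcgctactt
Fgfbp3, chr19:36919550-36919849, minus strand: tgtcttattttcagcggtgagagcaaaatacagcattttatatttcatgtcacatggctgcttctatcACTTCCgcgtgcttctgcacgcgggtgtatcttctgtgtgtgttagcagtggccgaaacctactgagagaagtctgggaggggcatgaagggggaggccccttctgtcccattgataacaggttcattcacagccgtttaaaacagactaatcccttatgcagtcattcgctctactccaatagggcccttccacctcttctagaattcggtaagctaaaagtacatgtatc

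The Etv5 promoter, the one of its 2 annotated starts with more matches, held GGAAGT 217 bases before the start and again at position 3 of the transcript. Spry2 held CCGGAA at position 34 of the transcript, Fgfbp3 held ACTTCC 182 bases before its start, and Fgf4 held neither motif in this window. RefSeq promoters were matched for 27 of the 36 genes, with 36 annotated starts. CCGGAA was in 16.7% of these 36 windows and in 14.9% of all 32851 windows, and GGAAGT in 19.4% and 23.8%. Either motif was in 11 of the 36 windows (30.6%, against 32.1% of all windows), each in a different gene. The 8-base form CCGGAAGT, which contains both, was in Fgfrl1 and Frs2 and in 3.89% of all windows. A match is a match of letters only, and genes with higher and with lower RNA in A2 SMA MNs both held them.

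Among the 13 secreted ligands and the endocrine ligand Fgf15, the most abundant one was not the same gene in both genotypes. Fgf4, the ligand that mESCs make (NCBI m37, chr7:152047291-152051148), was at 5.44 FPKM in Hb9 control and 24.0 FPKM in A2 SMA MNs, which is a log2 ratio of 2.14 (4.41-fold higher). Fgf18, a ligand of the Fgf8 subfamily, was at 7.70 and 1.76 FPKM, a log2 ratio of -2.13. In Hb9 control MNs Fgf18 was thus the ligand with the highest FPKM, and in A2 SMA MNs Fgf4 was. The ratio of Fgf4 to Fgf18 in FPKM was 0.706 and 13.6.

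The 14 ligand entries summed to 27.3 FPKM in Hb9 control and 43.1 FPKM in A2 SMA MNs, and Fgf4 was 19.9% and 55.6% of these sums. Fgf2 shares its entry with Bbs12, and its interval also holds Nudt6, a gene antisense to Fgf2, so its values of 5.35 and 2.09 FPKM (log2 ratio -1.36) may include reads of Bbs12. Whether reads were counted by strand is not given in the sources used here. Without that entry the ligands summed to 21.9 and 41.0 FPKM.

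Fgf1, a ligand without a signal peptide that binds all FGF receptors, was at 2.33 FPKM in Hb9 control and 6.77 FPKM in A2 SMA MNs (log2 ratio 1.54). Its interval of 787892 bases also holds Arhgap26 (entry shared with 9630014M24Rik), at 5.70 and 4.38 FPKM, and starts 265 bases after that of Spry4. Fgf5, a ligand of the early epiblast, was at 0.449 and 1.69 FPKM (log2 ratio 1.91), and Fgf17, of the Fgf8 subfamily, was at 0.174 and 1.16 FPKM (log2 ratio 2.74). Both were thus under 1 FPKM in Hb9 control MNs, and with 1 FPKM added to each value their log2 ratios were 0.89 and 0.88. The 3 genes of the Fgf8 subfamily did not share a direction: Fgf17 was higher, Fgf18 was lower and Fgf8 was at 0.532 and 0.748 FPKM.

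Fgf3 and Fgf15, which lie on either side of Fgf4 on chromosome 7, showed no difference of that size. Fgf3, a ligand of the hindbrain and otic region, was at 1.17 and 1.31 FPKM (log2 ratio 0.17). Fgf15, the mouse counterpart of human FGF19 and made in the neural tube and gut, was at 1.18 and 1.01 FPKM (log2 ratio -0.22, which is above the median gene). The intervals of Fgf3 and Fgf4 are 16947 bases apart and those of Fgf4 and Fgf15 29316 bases apart. Ccnd1, the cyclin gene that follows Fgf15 after 14146 bases, was at 93.8 and 36.8 FPKM (log2 ratio -1.35), so within this cluster Fgf4 alone was at least 2-fold higher.

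Fgf10, the mesenchymal ligand of Fgfr2, was at 1.48 FPKM in Hb9 control and 0.792 FPKM in A2 SMA MNs (log2 ratio -0.90). The other 5 ligands were under 1 FPKM in both genotypes and were not compared by ratio. They were Fgf7 at 0.0377 and 0.894 FPKM, Fgf8 at 0.532 and 0.748 FPKM, Fgf9 at 0.891 and 0.264 FPKM, Fgf22 at 0.485 and 0.674 FPKM, and Fgf20 at 0.0663 FPKM and listed at 0. Fgf7 lies in an interval with Galk2 and Cops2, the latter at 125 and 124 FPKM. Of the 8 secreted ligands compared, 4 were at least 2-fold higher and 2 at least 2-fold lower, against 6.83% and 22.4% of all genes, and their median log2 ratio was 0.86. That median rests on few genes, and it was 0.17 over the 5 ligands with at least 1 FPKM in both genotypes. The counts are limited too. Fgf5 and Fgf17 among the higher ligands reached 1 FPKM only in A2 SMA MNs. The lower ligands include the shared entry of Fgf2. Of 4 further ligands (Fgf6, Fgf16, Fgf21 and Fgf23), only the endocrine Fgf21 reached 1 FPKM, at 0.930 and 1.53 FPKM.

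**Figure D3:**
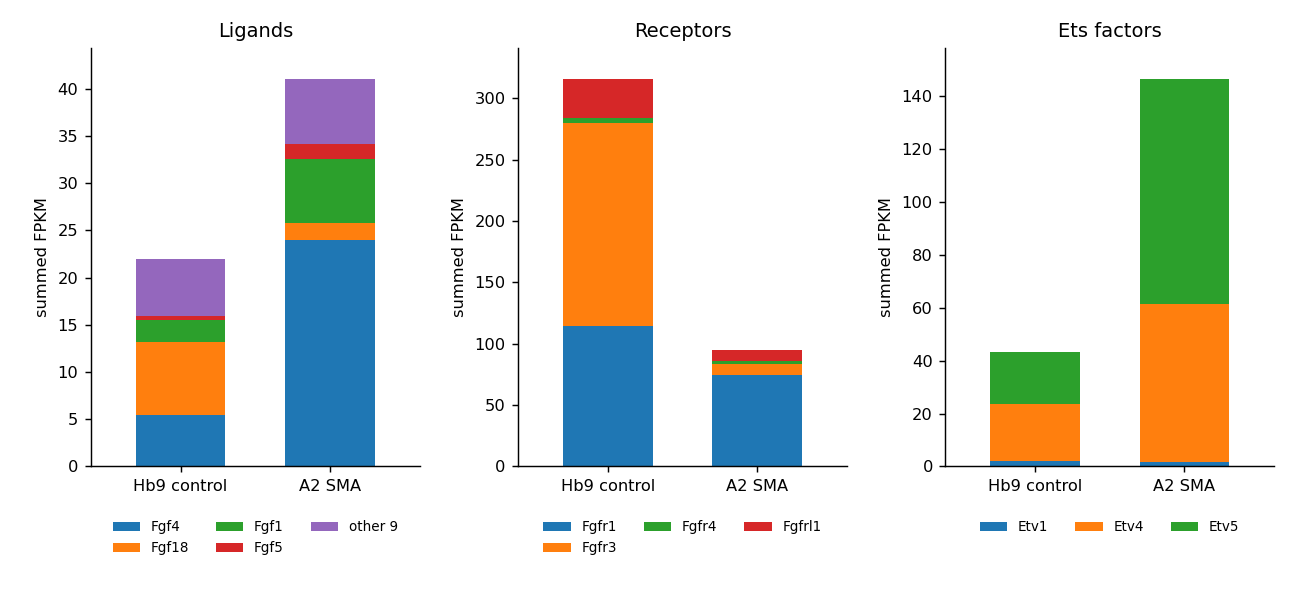
Summed FPKM of the ligands (without the shared entry of Fgf2), of the 4 receptor genes with an entry of their own and of the Ets factors in Hb9 control and A2 SMA MNs, stacked by gene. Fgf4 takes 24.8% of the ligand sum in Hb9 control and 58.4% in A2 SMA MNs, and Fgfr3 takes 52.4% and 9.88% of the receptor sum without Fgfr2 (34.9% and 2.62% with it).

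All 4 FGF homologous factors were at least 2-fold lower in A2 SMA MNs, although Fgf12 was not (-0.81) when 1 FPKM was added to each value. Over all genes 22.4% were lower by this limit, and Fgf12 and Fgf14 reached 1 FPKM in Hb9 control MNs only. These proteins have the FGF fold but are not secreted, and they bind the tails of voltage-gated sodium channels in neurons. Fgf13 (NCBI m37, chrX:56315322-56821248) was at 17.6 FPKM in Hb9 control and 2.36 FPKM in A2 SMA MNs (log2 ratio -2.90), and its other entries were lower too, at 13.6 and 2.72 FPKM and at 5.69 and 0.644 FPKM. Fgf11 was at 16.9 and 3.31 FPKM (log2 ratio -2.36). Fgf12 was at 1.33 and 0.327 FPKM (log2 ratio -2.02). Fgf14 was at 1.67 and 0.175 FPKM (log2 ratio -3.25, and -1.18 with 1 FPKM added to each value).

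The sum of the 4 genes was 37.5 FPKM in Hb9 control and 6.17 FPKM in A2 SMA MNs, and Fgf11 and Fgf13 made up most of it in both. The pan-neuronal markers were lower too: Map2 was at 218 and 14.5 FPKM and Nefl at 297 and 17.0 FPKM, and the median log2 ratio of the 8 markers was -3.90. Their part in the values of the FGF homologous factors was not tested. Because these are sorted cells in bulk, fewer neurons and less RNA per neuron cannot be told apart here.

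Fgfbp3, a secreted carrier that binds FGFs and frees them from heparan sulfate, had the largest difference of the 36 genes. It was at 62.3 FPKM in Hb9 control and 0.896 FPKM in A2 SMA MNs, which is a log2 ratio of -6.12 (69.6-fold lower), and with 1 FPKM added to each value the log2 ratio was -5.06. It ranked 4th of the 36 genes by FPKM in Hb9 control MNs and 28th in A2 SMA MNs. Its relative Fgfbp1, which was no member of the group described here, was at 6.40 and 16.3 FPKM (log2 ratio 1.35), so the carriers differed in direction. The neural progenitor markers were lower beside Fgfbp3, with Fabp7 at 553 and 5.52 FPKM and Hes5 at 65.3 and 0.349 FPKM. Of 6 such markers 5 were at least 2-fold lower, against 22.4% of all genes, and Hes5 reached 1 FPKM only in Hb9 control MNs. Pax6 was at 22.4 and 21.4 FPKM, and the sum of the list was 2201 and 217 FPKM. The part of neural progenitors in the Fgfbp3 value was not tested.

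The receptors differed among themselves. Fgfr3 (NCBI m37, chr5:34064373-34079716) was at 166 FPKM in Hb9 control and 9.35 FPKM in A2 SMA MNs, which is a log2 ratio of -4.15 (17.7-fold lower). It was the most abundant of the 36 genes in Hb9 control MNs and ranked 15th in A2 SMA MNs. Fgfr1, the receptor of stem cells and of many neural cells, was at 114 and 74.2 FPKM (log2 ratio -0.63). The ratio of Fgfr1 to Fgfr3 in FPKM was thus 0.691 in Hb9 control and 7.93 in A2 SMA MNs. The neural progenitor markers given above were lower with Fgfr3 (5 of 6 by at least 2-fold, against 22.4% of all genes, median log2 ratio -3.37). Their part in the Fgfr3 value was not tested.

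Fgfr4 was at 4.23 FPKM in Hb9 control and 2.18 FPKM in A2 SMA MNs (log2 ratio -0.96). Fgfrl1, a receptor that lacks the kinase domain and binds ligand without the usual signal, was at 31.7 and 8.98 FPKM (log2 ratio -1.82). The values of Fgfr3 and Fgfrl1 carry the status FAIL, which Cuffdiff gives when its estimate ran into a numerical problem, and 14.0% of all genes compared carry it. Without such entries 8 of 28 genes (28.6%) were at least 2-fold lower in place of 10 of 31, against 23.4% of all genes. Over the 4 genes with an entry of their own, receptor RNA summed to 316 FPKM in Hb9 control and 94.7 FPKM in A2 SMA MNs, and Fgfr1 was 36.2% and 78.3% of it. With the shared entry of Fgfr2 included, the sums were 474 and 357 FPKM, and Fgfr1 was 24.1% and 20.8% and Fgfr3 34.9% and 2.62% of them.

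Fgfr2 had the highest value of the 36 genes in A2 SMA MNs, but its entry is shared with Ctbp2, a transcriptional corepressor gene, and the table does not separate them. The entry was at 158 FPKM in Hb9 control and 262 FPKM in A2 SMA MNs (log2 ratio 0.73), and it lies in a merged interval of 3010073 bases. No level or direction is therefore given for Fgfr2 itself. The adaptor Frs2, which couples the activated receptors to RAS, was at 20.9 and 17.9 FPKM (log2 ratio -0.23). That is close to the median gene, and its second entry was at 3.37 and 3.34 FPKM.

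Among the 8 feedback inhibitors, Spry4 was at least 2-fold higher and Dusp4 at least 2-fold lower, and the other 6 lay between. These 12.5% in each direction stand against 6.83% of all genes higher and 22.4% lower. Spry4, a Sprouty protein that blocks the path from receptor to RAS and RAF, was at 3.56 FPKM in Hb9 control and 18.9 FPKM in A2 SMA MNs (log2 ratio 2.40, 5.29-fold higher). Spry2 was at 37.3 and 64.3 FPKM (log2 ratio 0.78), and it passed 2-fold only after centring on the median gene (1.07) or scaling to the upper quartile (1.19). Spry1 was at 12.2 and 11.5 FPKM (log2 ratio -0.09, and 0.20 relative to the median gene). Spry2 had the highest FPKM of the Sprouty genes in both genotypes, and the share of Spry4 in their sum was 6.70% and 19.9%.

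Of the 2 ERK phosphatase genes among the 36, neither was higher in A2 SMA MNs by FPKM. Dusp6, a cytoplasmic phosphatase of ERK, was at 46.7 FPKM in Hb9 control and 40.2 FPKM in A2 SMA MNs (log2 ratio -0.21, and 0.08 relative to the median gene). Dusp4, its nuclear relative, was at 46.6 and 18.3 FPKM (log2 ratio -1.35) and was under 2-fold after scaling to the upper quartile (-0.94). The ratio of Dusp6 to Dusp4 in FPKM was 1.00 in Hb9 control and 2.20 in A2 SMA MNs. Il17rd, which encodes the membrane inhibitor Sef, was at 9.22 and 13.6 FPKM (log2 ratio 0.56).

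Spred1, an inhibitor that acts on RAS through neurofibromin, was at 23.2 FPKM in Hb9 control and 25.9 FPKM in A2 SMA MNs (log2 ratio 0.16). Spred2 was at 18.5 and 22.7 FPKM (log2 ratio 0.29, status FAIL). The median log2 ratio of the 8 inhibitors was 0.22, and 7 of them, all but Dusp4, lay above the median of all genes. As a sum they were at 197 and 215 FPKM, so the inhibitors together differed less than Spry4 or Dusp4 did.

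The Ets factors Etv4 and Etv5 were both higher in A2 SMA MNs. Etv5 (NCBI m37, chr16:22381382-22439792), whose promoter is printed above, was at 19.9 FPKM in Hb9 control and 85.2 FPKM in A2 SMA MNs, which is a log2 ratio of 2.10 (4.28-fold higher). Etv4 (chr11:101631056-101646685) was at 21.3 and 59.8 FPKM (log2 ratio 1.49, 2.81-fold higher). Dhx8, whose interval ends 809 bases before that of Etv4, was at 37.2 and 40.9 FPKM. Etv1, the third factor of the PEA3 group, was at 2.24 and 1.57 FPKM (log2 ratio -0.51) and was thus a small part of their sum.

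The 3 Ets factors summed to 43.4 FPKM in Hb9 control and 147 FPKM in A2 SMA MNs. Etv5 ranked 12th of the 36 genes in Hb9 control MNs and 2nd in A2 SMA MNs. Beside Fgf4, Spry4, Etv4 and Etv5, the pluripotency markers were higher as given above, with Nanog at 41.4 and 236 FPKM, Esrrb at 25.6 and 179 FPKM (status FAIL, as for 3 of the 10 markers) and Sox2 at 179 and 197 FPKM. The part of pluripotent cells in the values of these 4 genes was not tested.

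Markers of fibroblasts (the feeder cells), endoderm and mesoderm were also read in the sorted cells. Of 8 fibroblast markers 1 was at least 2-fold higher and 5 at least 2-fold lower, against 6.83% and 22.4% of all genes. Thy1, Postn and Lum among these reached 1 FPKM only in the genotype where each was higher. The 8 markers summed to 69.6 FPKM in Hb9 control and 36.6 FPKM in A2 SMA MNs, with Col1a1 at 18.9 and 9.41 FPKM (status FAIL). Of 5 endoderm markers compared none was at least 2-fold higher and 2 were at least 2-fold lower (6.83% and 22.4% of all genes). The list summed to 92.6 and 46.4 FPKM. Of 4 mesoderm markers compared, Eomes alone was at least 2-fold higher, at 1.35 and 4.44 FPKM, and 2 were at least 2-fold lower (6.83% and 22.4% of all genes). Kdr, among the lower ones, reached 1 FPKM only in Hb9 control MNs. The mesoderm list summed to 21.1 and 14.6 FPKM. The part of these cell types in the values of the FGF pathway genes was not tested.

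Genes of the RAS-MAPK cascade lie between the receptors and the Ets factors. None of 20 genes of the RAS-MAPK cascade was at least 2-fold higher and 2 were at least 2-fold lower (6.83% and 22.4% of all genes), with a median log2 ratio of -0.31 against -0.29 for all genes, and 5 of the 20 carry the status FAIL. Map2k2, a kinase that activates ERK, was at 136 and 123 FPKM (log2 ratio -0.15). The adaptors Shc1 (35.9 and 63.9 FPKM, log2 ratio 0.83) and Gab1 (53.6 and 72.0 FPKM, 0.42) had the highest ratios. Nf1, the RAS inhibitor neurofibromin, had the lowest ratio, at 32.0 and 11.7 FPKM (log2 ratio -1.45), followed by the RAS activator Sos2, at 14.4 FPKM in Hb9 control MNs (-1.04).

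In the PLC-gamma and PI3K branch, 3 of 12 genes were at least 2-fold lower, close to the 22.4% of all genes, and none was higher, with a median log2 ratio of -0.71. Akt1 was at 256 FPKM in Hb9 control and 104 FPKM in A2 SMA MNs (log2 ratio -1.30) and the protein kinase C gene Prkcb at 12.6 and 2.30 FPKM (-2.46). Plcg1, a direct substrate of the receptors, was at 182 and 107 FPKM (log2 ratio -0.77) and Pik3r2 at 57.4 and 37.6 FPKM (-0.61). The kinase genes Pik3cb (11.1 and 16.1 FPKM, log2 ratio 0.53) and Pdpk1 (33.9 and 47.6 FPKM, 0.49) were the highest by ratio.

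Most co-receptors, carriers and genes of heparan sulfate had lower values in A2 SMA MNs (21 of 25 compared, against 65.9% of all genes). Of these 25, 14 were at least 2-fold lower, against 22.4% of all genes, and Fgfbp1 alone was at least 2-fold higher. Their median log2 ratio was -1.06. The most abundant in Hb9 control MNs were Sulf2, a heparan sulfate sulfatase, at 254 and 118 FPKM (log2 ratio -1.11), the glypican gene Gpc2 at 153 and 20.4 FPKM (-2.91, entry shared with Gal3st4) and L1cam at 133 and 51.9 FPKM (-1.35, entry shared with Arhgap4 and Naa10). The adhesion molecule Ncam1, which can bind FGF receptors, was the lowest by ratio, at 75.8 and 7.23 FPKM (log2 ratio -3.39). Gpc4, a glypican of stem cells, was at 10.7 and 20.3 FPKM (log2 ratio 0.93). Many of these genes are also expressed by neurons.

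Other transcripts that respond to ERK were called about as often as all genes. Of 15 early response and further feedback genes compared, 1 was at least 2-fold higher and 3 at least 2-fold lower (6.83% and 22.4% of all genes), with a median log2 ratio of -0.37. The higher one was Lgals3, at 6.48 FPKM in Hb9 control and 26.0 FPKM in A2 SMA MNs (log2 ratio 2.01). The immediate early genes Egr1 (15.3 and 24.4 FPKM, log2 ratio 0.68) and Ier2 (65.2 and 98.3 FPKM, 0.59) were higher by less than 2-fold. Fos, a further immediate early gene, was lower by less than 2-fold (15.2 and 10.1 FPKM, -0.59). By any amount, 6 of the 15 genes were higher and 9 lower. Ccnd1 was lower as given above, Phlda1 was at 45.2 and 20.5 FPKM (log2 ratio -1.14), and Spred3, the relative of Spred1 and Spred2, was at 7.41 and 3.62 FPKM (-1.03).

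FGF also maintains genes of the caudal progenitor zone. Of 6 such genes compared, 1 was at least 2-fold higher (Wnt8a, at 0.557 and 1.18 FPKM) and 3 were at least 2-fold lower (6.83% and 22.4% of all genes). Each of these 4 genes reached 1 FPKM only in the genotype where it was higher, so nothing is read from this count. Sp8 was at 7.99 FPKM in Hb9 control and 0.305 FPKM in A2 SMA MNs (log2 ratio -4.71) and Nkx1-2 at 1.86 and 0.105 FPKM (-4.16). Cdx1 was at 2.06 and 2.58 FPKM and Cyp26a1, the enzyme that degrades retinoic acid, at 16.6 and 12.2 FPKM (log2 ratio -0.44).

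**Figure D4:**
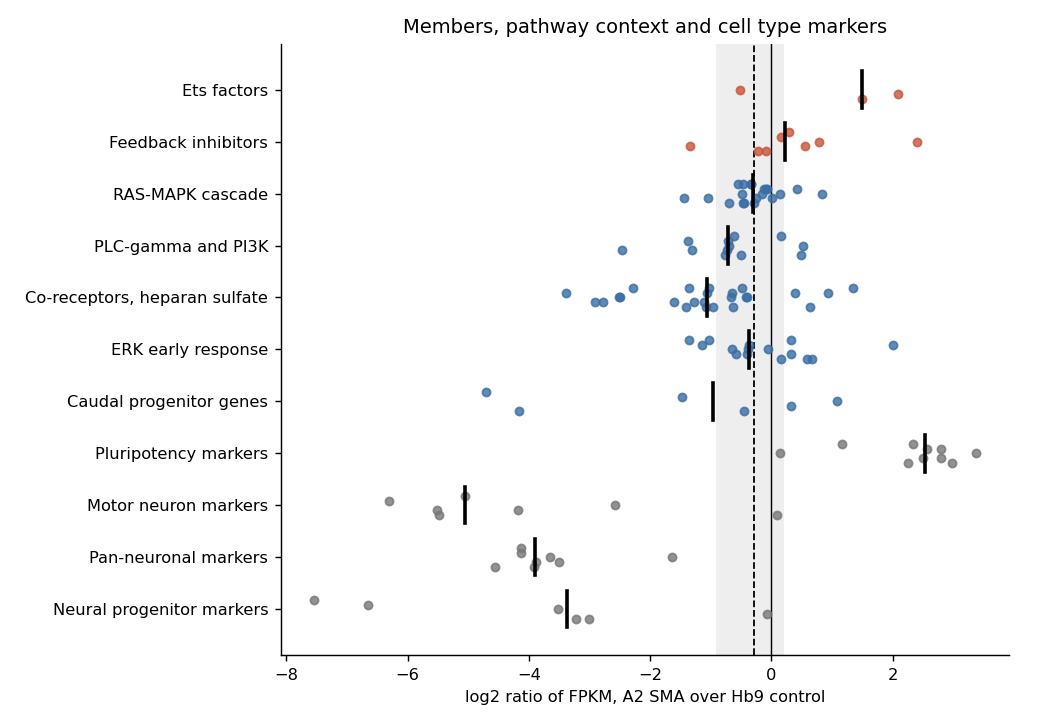
Log2 ratio of FPKM, A2 SMA over Hb9 control MNs, for single genes (points) of the Ets factors and feedback inhibitors (red), of further genes of the pathway (blue) and of cell type markers (grey), with the median of each list (black bar) and the median and quartiles of all genes (dashed line and band). The RAS-MAPK cascade is centred near the median gene (-0.31 against -0.29), the Ets factors (median 1.49) and pluripotency markers (2.54) lie to the right, and the neuronal markers lie to the left.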

How the data were processed

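The authors sequenced TruSeq libraries of 3 samples of each genotype with single-end reads. Per the labels, reads were checked with FastQC 0.10.1, trimmed with cutadapt, mapped with TopHat2 2.04, assembled with Cufflinks and compared with Cuffdiff, and the study's methods name NCBI m37 with Ensembl genes. The deposited file gives 1 FPKM value per entry and genotype, computed by the authors over the 3 samples. It also holds the authors' fold changes, test statistics, p and q, which were not used, and a status, used as a quality mark. Depth per sample is not in that file.

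Symbols were split at commas and placed by the entry with the highest FPKM (Python 3.11.15, pandas 2.3.3, numpy 2.4.6; figures with matplotlib 3.10.9). Log2 ratios were formed without a pseudocount for entries above 0 FPKM in both genotypes that reached 1 FPKM in at least 1 of them, and 2-fold was the limit. With 1 value per genotype no test was possible. The steps were tested on simulated data. Hras and Map2 were found under the older symbols Hras1 and Mtap2 with RefSeq synonyms; Anos1, Slc18a3, Tubb3 and Sox1 were not analysed here. Positions are those of the file, and RefSeq promoters (GRCm38.p6) were joined by symbol only.

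The 36 genes, the roles, the other lists and the motifs were chosen with earlier results of these data known. All 36 genes are named, and of each other pathway list the 3 with the highest FPKM, the 2 with the highest and the 2 with the lowest ratio. Some genes that this rule selects are not reported here. Genes outside this rule (Spred3, Fos, markers, neighbouring genes) were named after their values were seen. The alternatives were pseudocounts, filters, scaling, summed entries, leaving out failed or shared entries, and limits of 1.5-fold and 4-fold.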

Additional observations from a re-analysis of the deposited data

How the results depend on the processing

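No paired analysis was possible because the table holds 1 value per genotype, and for the same reason no sample could be left out. Under 12 alternatives the count of genes at least 2-fold higher lay between 5 and 10 (4.38% to 12.9% of all genes) and of those lower between 7 and 11 (14.2% to 24.5% of all genes), except that limits of 1.5-fold and 4-fold gave 9 and 13 (12.7% and 35.4% of all genes), and 4 and 7 (1.80% and 8.88%). The median log2 ratio of the secreted ligands (0.86) was 0.091 with a filter of 5 FPKM, 0.17 with 1 FPKM in both genotypes, 1.94 after scaling to the upper quartile and 1.54 without shared entries, and each of these changes which genes enter it. That of the FGF homologous factors was -1.62 with a pseudocount of 1 FPKM. Of 290 recomputed log2 ratios of single genes, 285 moved by less than 1.5-fold and none at least 2-fold in size changed sign. Centring on the median gene or scaling to the upper quartile turned Fgf15, Frs2, Spry1 and Dusp6 from below to above 0, and upper quartile scaling brought Fgf2 (-0.96) and Dusp4 (-0.94) under 2-fold. A pseudocount of 1 FPKM brought Fgf5, Fgf17 and Fgf12 (-0.81) under 2-fold. Genes under 1 FPKM, and the shared entries of Fgf2 and Fgfr2, limit what these values show.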

Other observations

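Transcribed entries without a gene name lay within 1000 bases of 5 of the FGF pathway genes and reached 1 FPKM. The entry 137 bases from the Fgf18 interval (NCBI m37, chr11:33047538-33047800) was at 14.7 FPKM in Hb9 control and 2.31 FPKM in A2 SMA MNs, above the 7.70 and 1.76 FPKM of Fgf18 itself. An entry 100 bases from Spry2 (chr14:106296455-106296713) was at 1.97 and 5.58 FPKM, and one 65 bases from Spred1 (chr2:116946490-116947044) at 2.21 and 3.55 FPKM. One 119 bases from Fgfrl1 (chr5:109120375-109123128) was at 2.05 and 0.685 FPKM, and one 36 bases from Fgf14 (chr14:125076386-125076725) was at 1.38 FPKM and listed at 0. By the strands in RefSeq (minus for Fgf18, Spry2 and Fgf14, plus for Spred1 and Fgfrl1), all 5 lie on the side of the gene's start. Whether they are parts of those genes was not tested.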
